A study of Rattus norvegicus with 4 samples.

Results

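The transcripts described here encode the chaperones of the cytosol and the mitochondrion, in Sertoli cells cultured with or without cAMP. The members were 36 genes named for this set, and a gene was measured where a probe set carried its symbol and no other. Where a gene had more than 1, the probe set with the highest mean over the 4 arrays stood for it. Of the 36 genes, 33 had such a probe set and 32 were bright enough to be tested, out of 10035 genes tested on the array. Hspa1b, Hspa8 and Hsp90aa1 were left without a value, because the probe sets that list them carry several symbols, and Hspb8 lay below the filter on dim probe sets, with signals of 5.1 and 5.5 on the control arrays and 7.9 and 12.5 with cAMP.

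Sertoli cells line the seminiferous tubule of the testis and feed and support the developing germ cells. They were isolated from the testes of male Sprague-Dawley rats aged 20 days and kept for 72 h in serum-free medium. The 2 control cultures had no treatment and the 2 treated cultures received cAMP, the second messenger of follicle-stimulating hormone, in a form and at a dose the labels do not state. Biotin-labelled cRNA was hybridised to one-colour Affymetrix rat arrays, 1 array per sample. The labels call the samples biological replicates but do not tie them to separate animals or isolations. The p-values therefore rest on the spread between these 4 samples only, and some or all of it may be technical.

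Chaperones bind unfolded or partly folded proteins and keep them from aggregating. The HSP70 proteins bind and release their clients in a cycle driven by ATP, in which J-domain proteins of the HSP40 family deliver the client and speed up hydrolysis, while HSP110 and BAG proteins release the nucleotide. HSP90 acts later on signalling proteins, the ring-shaped TRiC complex folds actin and tubulin, and small heat shock proteins hold unfolded proteins without ATP. In the mitochondrion, mortalin draws imported proteins inward and the chamber built from HSP60 and HSP10 folds them. The heat shock factors switch on many of these genes when proteins unfold, through heat shock elements in their promoters. The testis is kept below body temperature, and its cells are known for their sensitivity to heat.

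The 4 arrays had equal trimmed means because they had been scaled before deposit, so this equality cannot show that their signals are comparable. Among the 11 measured markers of Sertoli cells, 10 lay above background on every array, Clu, Cldn11, Wt1 and Inha among them. Of these 10, all tested, Inha, Dhh and Shbg rose, Gata4 and Aard fell and 5 did not pass. The list summed to 23334.4 to 24893.5 without and 25287.5 to 25467.3 with cAMP. Within these sums Inha went from 951.6 and 1242.8 to 4344.6 and 4732.6. Amh, Wt1, Dhh, Shbg and Gata1 were also higher on both cAMP arrays, and Clu, Cldn11, Gata4 and Aard were lower. The sums therefore do not show a rise of the list as a whole. Background was taken as 14.2, the highest value among 27 probe sets for Bacillus genes, which these RNAs should not contain. Control replicate 2 stood apart: it correlated with the cAMP arrays at r = 0.895 and 0.900, against 0.925 and 0.924 for control replicate 1 (across 18625 probe sets, which are not independent replicates), and its actin probe sets had a 3'/5' signal ratio of 2.25, against 1.65 to 1.86 on the other arrays. Its Gapdh ratio was 0.903, against 0.930 to 0.966 on the others, so these ratios, which rise when RNA is degraded, lay apart in opposite directions. In 27 of the 32 tested members (84.4%) the signal was lower on control replicate 2 than on control replicate 1, as it was in 56% of all genes tested. Among markers of other cell types, the Leydig list summed to 139 to 176 on the control arrays and 2926 to 3459.4 with cAMP. Star made up nearly all of the sum with cAMP, at 3369.3 and 2852.5, against 81 and 48.9 without it. Cyp11a1 lay above background on every array, at 42.1 and 40.6 without and 50.9 and 42.4 with cAMP, and did not pass. Hsd17b3 lay at 23.3 and 24.3 without and at 16.4 and 9.7 with cAMP, and Insl3 at 14.7 or less. Cyp17a1, Hsd3b1 and Lhcgr stayed under background on every array. Endothelial markers were at or under background apart from Kdr, which fell, with list sums from 142.7 to 212 on the control arrays and from 71.9 to 81.4 with cAMP. The 6 macrophage markers summed to 61.6 to 67.8 without and 84.1 to 128.8 with cAMP. Of these, Cd14 alone was bright enough to be tested and did not pass, and Cd68 was under background on the control arrays, at 4.1 and 6.2, and at 28.1 and 45.2 with cAMP. The part of these markers and of control replicate 2 in the differences below was not tested, and each result is given with the arrays on which it rests.

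Promoter sequences of the members are shown because chaperone genes are grouped by the elements in their promoters. RefSeq windows of assembly GRCr8, from 250 bases before to 50 after the start site, were found for 29 of the 36 members. Hspa1b, Hsp90aa1, Hspb2, Cryab, Dnaja2, Dnajb4 and Hsf1 were not matched. The heat shock element was searched on both strands as 3 alternating units, GAA, TTC and GAA, with 2 free bases between neighbours. It was found in 6 of the 29 member windows (20.7%), those of Hspa8, Hsph1, Hspd1, Hspe1, Dnaja1 and Cct4, and in 0.736% of the 27457 windows of the table. The following stretches of 30 bases hold it, in capitals. In Hspe1 and Hspd1, which are neighbours on opposite strands, the same stretch carries a pair of overlapping elements and is printed from each strand.
Hspe1 (chr9:64084256-64084285, + strand): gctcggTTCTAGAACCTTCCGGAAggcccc
Hspd1 (chr9:64084256-64084285, - strand): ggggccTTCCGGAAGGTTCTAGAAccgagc
Hsph1 (chr12:10427324-10427353, + strand): gccgcagaTTCTGGAAAGTTCtcctcagta
These are matches of letters and were not tested as binding sites. Hspd1 and Hspe1 rose with cAMP, while Hsph1, Dnaja1 and Cct4, each with a match of its own, did not pass the test, as described below. Hspa8 had no value.

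The cAMP response element, TGACGTCA, which reads the same on both strands, occurred in 2 member windows, Hsp90ab1 and Cct4, and in 1.91% of all windows. Neither gene passed the test. They are shown because they are the only full matches among the members, with the element in capitals.
Hsp90ab1 (chr9:22930232-22930261, + strand): gtctgcgagcaTGACGTCAaggtgggcggg
Cct4 (chr14:101193001-101193030, + strand): cggacagccccTGACGTCAtatctgcgccg
The shorter core TGACG, counted on both strands and also within the full element, was found in 14 of the 29 member windows (48.3%) and in 22% of all windows. Bag2, the member with the smallest p, carried 3 such cores and no full element. Hsp90ab1 and Cct4, which did not pass, carried 3 each. Of the other changed members with a window, Hspa4 and Hspe1 carried the core and Hspa9, Hspd1 and Hspa4l did not. Its 250 bases before the start site are given with the cores in capitals; CGTCA is the same core on the other strand.
Bag2 (chr9:43476638-43476887, - strand): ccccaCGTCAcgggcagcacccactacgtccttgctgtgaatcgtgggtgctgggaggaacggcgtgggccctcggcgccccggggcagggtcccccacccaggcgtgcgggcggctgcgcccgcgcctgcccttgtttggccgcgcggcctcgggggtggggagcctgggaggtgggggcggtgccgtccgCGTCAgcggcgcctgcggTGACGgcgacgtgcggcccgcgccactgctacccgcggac

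Among the 32 tested members, 5 rose and 3 fell, and the other 24 did not pass. Rose and fell mean an adjusted p by limma under 0.05, with adjustment over all probe sets tested. Counts at an unadjusted p under 0.05 are given below without the share of all genes at that threshold, which was not computed. That share cannot be smaller than the 15.4% of all genes that passed at the adjusted p. The 8 changed members were 25% of those tested, against 15.4% of all genes tested. They include Hspb2, which passed the filter on dim probe sets through its control arrays alone. In the upward direction 8.27% of all genes passed and in the downward direction 7.16%. The median log2 difference of the members, cAMP minus control, was 0.09, beside -0.03 for all genes tested. Bag2 and the mitochondrial chaperones Hspa9, Hspd1 and Hspe1 rose together with the HSP110 gene Hspa4, and the small heat shock protein genes Cryab and Hspb2 fell together with the HSP110 gene Hspa4l. The other chaperone transcripts, among them all 8 subunits of TRiC and all 5 J-domain genes, did not pass. In simulated data, where fewer probe sets changed than passed here, 24.85% of true 2-fold changes passed. That share need not hold for these data, but a gene that did not pass may still have changed. In these bulk cultures, fewer cells of a type and less RNA per cell cannot be told apart.

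**Figure D1:**
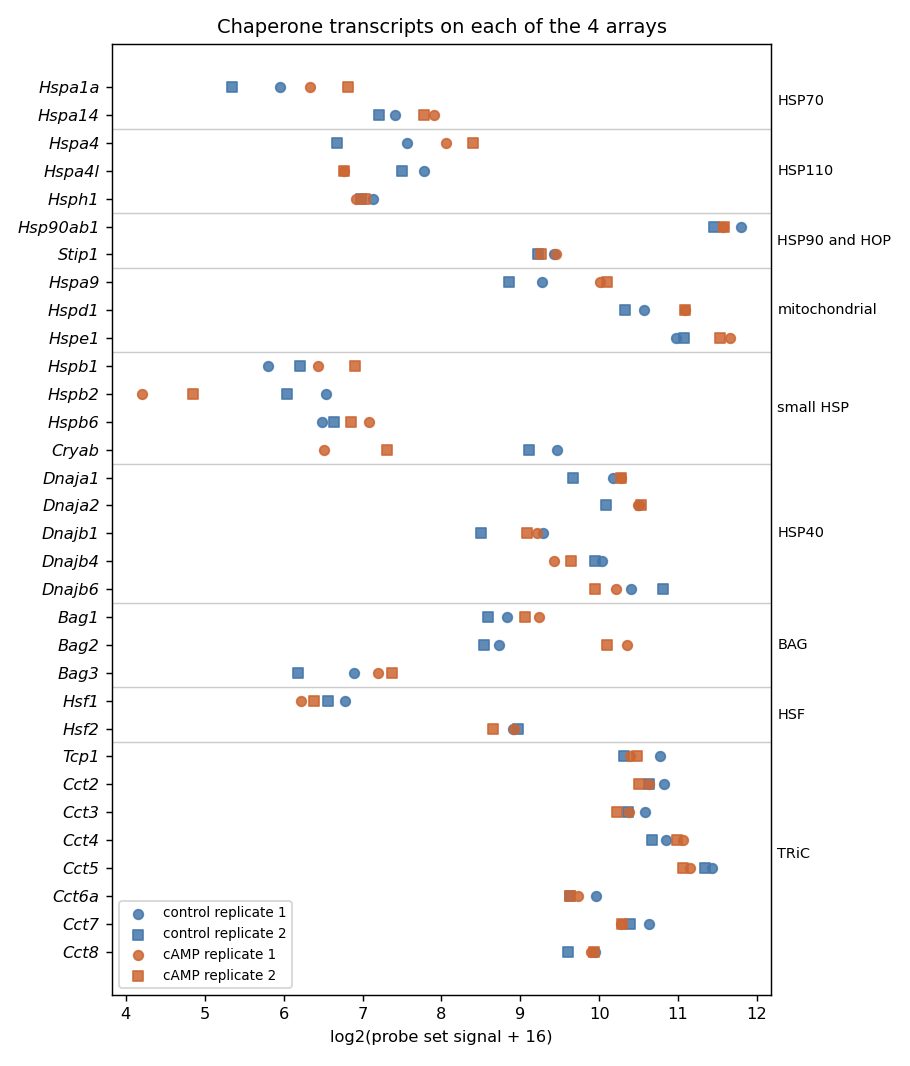
Signal of the 32 tested members on each array, as log2(probe set signal + 16), with members grouped by role. Circles are replicate 1 and squares replicate 2, control in blue and cAMP in orange. Both cAMP arrays lay above both control arrays for all 3 mitochondrial members and below them for Cryab and Hspb2. The groups overlapped for 4 of the 8 TRiC subunits, and they did not overlap for 61.4% of all genes tested.

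The groups did not overlap for 22 of the 32 members (68.8%), against 61.4% of all genes tested. Both cAMP arrays lay above both control arrays for 13 members and below them for 9. Over all genes tested these shares were 28.8% above and 32.6% below. With 2 arrays per group, arrays that did not overlap were common, and most such members did not pass the test.

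The mitochondrial chaperones rose together. Hspa9 encodes mortalin, the mitochondrial HSP70 that drives protein import. It measured 603.7 and 447.2 without cAMP against 1010.8 and 1080.5 with it, both cAMP arrays lying above both controls. The log2 difference was 0.99 ± 0.17 (standard error; 2 arrays per group), a 1.98-fold rise, with an adjusted p by limma of 0.00916. Of the 3 other tested probe sets of Hspa9, 1 rose as well (1.14 ± 0.23). The other 2 did not pass and were dim, with signals under 100 on every array and log2 differences of 0.71 ± 0.25 and 0.04 ± 0.25.

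Hspd1 encodes HSP60, the barrel of the folding chamber. It lay at 1502.4 and 1266.6 on the control arrays and at 2156.7 and 2168.8 with cAMP. The cAMP arrays nearly coincided, and both lay well above the controls. The difference of 0.64 ± 0.13 had an adjusted p by limma of 0.0174. Hspe1 encodes HSP10, the lid of the chamber. It lay at 1998.5 and 2145.4 without and at 3212.7 and 2953.3 with cAMP, a difference of 0.57 ± 0.11 with an adjusted p by limma of 0.0175. The 95% intervals of the fold change, 1.27 to 1.92 for Hspd1 and 1.23 to 1.79 for Hspe1, overlapped. The genes are neighbours in the RefSeq table, and their windows share the paired heat shock elements printed above. Hspe1 was the only mitochondrial member that was not lower on control replicate 2 than on control replicate 1.

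The rise of the mitochondrial members held without either control array. Without control replicate 2, the difference of Hspa9 was 0.78, that of Hspd1 0.52 and that of Hspe1 0.62, with adjusted p-values by limma from 0.00477 to 0.0115. None of the 3 passed without cAMP replicate 1 or without cAMP replicate 2, with log2 differences of 0.51 to 1.03 and adjusted p-values by limma from 0.0877 to 0.257. Without the filter on dim probe sets Hspd1 and Hspe1 did not pass either (adjusted p by limma = 0.0522 and 0.0581), and the same held for eBayes without an intensity trend (0.0636 and 0.0769), while Hspa9 passed under both.

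Among the BAG proteins, which release nucleotide from HSP70, Bag2 had the largest rise of any member. BAG2 is known to restrain CHIP, the ubiquitin ligase that marks the clients of HSP70 for breakdown. Bag2 lay at 409 and 354.8 on the control arrays and at 1292.9 and 1076.6 with cAMP. The groups lay far apart: the mean rose from 382 ± 38.3 to 1185 ± 153 (SD, n = 2), which is 3.01-fold (log2 difference 1.59 ± 0.15, adjusted p by limma = 0.000814). Bag2 passed with each array left out in turn, at differences of 1.46 to 1.72. Stub1, which encodes CHIP, did not pass (-0.17 ± 0.13).

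The other BAG members had positive differences that did not pass. Bag1, an exchange factor also known as a survival protein, lay at 439.2 and 369.7 without and at 587.9 and 516.6 with cAMP (0.44 ± 0.15, adjusted p by limma = 0.112). Bag3, which links HSP70 to autophagy and small heat shock proteins, lay at 102.7 and 56.7 without and at 131.1 and 150.5 with cAMP (0.75 ± 0.26, adjusted p by limma = 0.102). The cAMP arrays lay above the controls for both genes. Both passed when control replicate 1 was left out, Bag3 with a difference of 1.11 and Bag1 with 0.56, and neither did without control replicate 2.

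**Figure D2:**
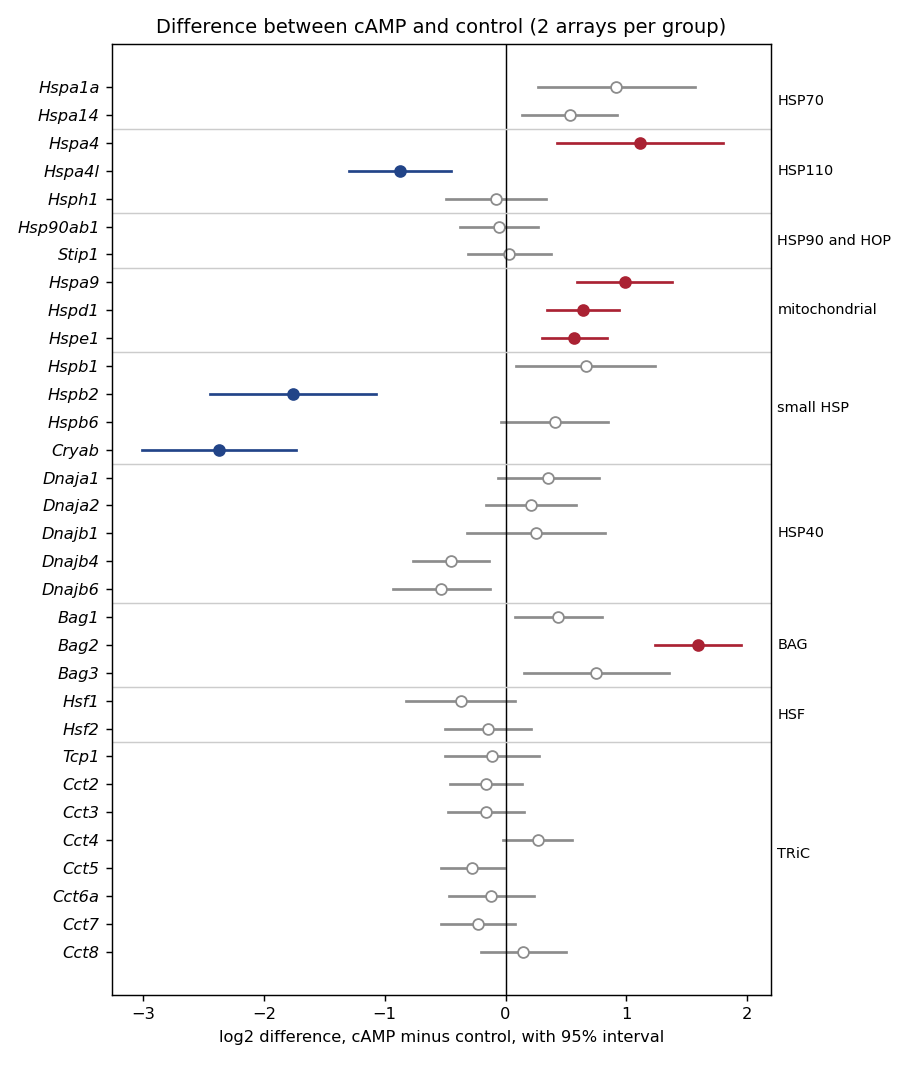
Log2 difference, cAMP minus control, of each tested member with its 95% interval from limma, grouped by role. Filled points passed the test (red higher, blue lower) and open points did not; Bag2 at 1.59 and Cryab at -2.37 were the extremes.

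Of the 4 tested small heat shock protein genes 2 fell, beside 7.16% of all genes tested, and 2 did not pass. Hspb2, which fell, was tested through its control arrays alone. Cryab encodes alpha-B-crystallin, a holdase abundant in lens and muscle. It measured 688.8 and 534.9 without cAMP against 75.4 and 142.8 with it, so both cAMP arrays lay far below both controls. The mean fell from 612 ± 109 to 109 ± 47.7 (SD, n = 2), a log2 difference of -2.37 ± 0.27 that made it 5.17-fold lower (adjusted p by limma = 0.00172). Cryab passed with each array left out in turn, at differences of -2.77 to -1.97.

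Hspb2, a partner of the myotonic dystrophy kinase in muscle, lies beside Cryab in the RefSeq table, and the 2 gene bodies overlap there. It lay at 76.7 and 49.8 on the control arrays and at 2.5 and 12.8 with cAMP. Both cAMP values were under background, so the gene passed the filter through its control arrays alone, and the change is a bound, at least 4.35-fold lower. The fitted log2 difference was -1.76 ± 0.29 (adjusted p by limma = 0.00825), and it did not pass without cAMP replicate 1 (adjusted p by limma = 0.0752). Whether each probe set reads only its own gene was not tested.

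Hspb1 and Hspb6 did not pass. Hspb1 encodes HSP27, which protects actin filaments. It lay at 39.9 and 58.2 without and at 70.8 and 104.1 with cAMP (0.66 ± 0.24, adjusted p by limma = 0.125). Hspb6 encodes HSP20, a known substrate of the cAMP-dependent kinase, and lay at 73.4 and 83.6 without and at 119.2 and 99.7 with cAMP (0.41 ± 0.19, adjusted p by limma = 0.209). In both genes the cAMP arrays lay above the controls, opposite to Cryab and Hspb2.

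Cryab and Hspb2 are both known from muscle, and markers of peritubular myoid cells, the contractile cells around the tubule, were measured beside them. All 7 genes of that list had a probe set, and 3 lay above background on every array. Their summed signal was 460.8 to 614 on the control arrays and 181.7 to 221.1 with cAMP, and most of it in the controls came from Tagln. Of 5 tested, Tagln and Synpo2 fell and Des rose. Tagln was under background on both cAMP arrays, at 1.3 and 7.4, so it was tested through its control arrays alone and its change is a bound, at least 21.2-fold lower. Acta2 (-0.19 ± 0.26) and Myh11 (-0.35 ± 0.21) did not pass. Cnn1 and Actg2 were near background, at 19.2 or less on every array. The part of these cells in the fall of Cryab and Hspb2 was not tested.

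The products of the HSP110 genes release nucleotide from HSP70 and help it to dissolve aggregates. Of the 3 genes, Hspa4 rose, Hspa4l fell and Hsph1 did not pass. Hspa4 lay at 173.2 and 86.2 on the control arrays and at 250.2 and 322.7 with cAMP. The cAMP arrays lay above the controls, but the controls differed widely. The difference of 1.11 ± 0.29 passed narrowly (adjusted p by limma = 0.0477) and did not pass without control replicate 2, where it was 0.67 (adjusted p by limma = 0.0566), without cAMP replicate 1 (0.155) or without cAMP replicate 2 (0.293). It also did not pass with a pseudocount of 1 (0.0553), with quantile normalization (0.0508), without the filter on dim probe sets (0.117) or with eBayes without an intensity trend (0.0731).

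Hspa4l, the HSP110 form known for its high level in germ cells and in osmotic stress, fell. It lay at 203.9 and 165.6 on the control arrays and at 92.8 and 93.2 with cAMP, with both cAMP arrays well below both controls. The difference was -0.87 ± 0.18 (adjusted p by limma = 0.0193), and it did not pass without cAMP replicate 1 (adjusted p by limma = 0.175) or without cAMP replicate 2 (0.160). Hsph1, the heat-inducible HSP110, lay at 124.8 and 110 without and at 105.1 and 115.3 with cAMP. Its groups overlapped (-0.08 ± 0.18, 95% interval -0.49 to 0.33).

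Germ cell markers were measured beside Hspa4l. Of 14 on the list 9 had a probe set, and 4, Sycp1, Sycp3, Hspa2 and Ldhc, lay above background on every array. The summed signal was 3324.3 to 3726.2 on the control arrays and 2610.4 to 3475.5 with cAMP, lowest on cAMP replicate 2. None of the 4 tested passed by limma, and 0 had an unadjusted p under 0.05. The differences were 0.25 ± 0.20 for Sycp1, -0.22 ± 0.14 for Sycp3, -0.41 ± 0.22 for Ldhc and -0.04 ± 0.22 for Hspa2, the testis HSP70. Tnp1, Prm1, Odf1 and Hspa1l, which mark later germ cells, lay at or below background on every array. The part of germ cells in the fall of Hspa4l was not tested.

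The measured cytosolic HSP70 and HSP90 genes did not pass. Hspa1a, the classic heat-inducible HSP70, lay at 46.1 and 24.8 without and at 64.5 and 96.5 with cAMP. The cAMP arrays lay above the controls, and the difference was 0.92 ± 0.28 (95% interval 0.27 to 1.57, adjusted p by limma = 0.072). It passed without control replicate 1 (1.22, adjusted p by limma = 0.0154). Hspa1b is a near-identical copy of Hspa1a, and how far it adds to this probe set was not tested. Hspa14, an HSP70 of the ribosome, was at 154.5 and 132.2 without and at 224.5 and 203.4 with cAMP (0.53 ± 0.17, adjusted p by limma = 0.0839). Both genes had an unadjusted p under 0.05, a threshold at which the share of all genes was not computed.

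Hsp90ab1, the constitutive HSP90, lay at 3534.8 and 2791.2 on the control arrays and at 3010.3 and 3038.4 with cAMP. The cAMP arrays fell between the controls, and the difference was -0.05 ± 0.14 (95% interval -0.37 to 0.27). The other tested probe set of Hsp90ab1 gave 0.42 ± 0.22 and did not pass either. Stip1, the adaptor HOP that passes clients from HSP70 to HSP90, lay at 669.5 and 583.1 without and at 685.1 and 597.2 with cAMP (0.03 ± 0.15). The intervals of Hsp90ab1 and Stip1 together ran from a 0.771-fold to a 1.30-fold level.

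None of the 5 J-domain genes passed by limma, beside 15.4% of all genes tested. An unadjusted p under 0.05, for which the share of all genes was not computed, was found for 2, Dnajb4 and Dnajb6. Dnaja1, a farnesylated partner of HSC70, lay at 1142 and 797.4 without and at 1229.1 and 1222 with cAMP (0.36 ± 0.18). Its other tested probe set gave 0.56 ± 0.16 (adjusted p by limma = 0.0607). Dnajb1, the heat-inducible HSP40, lay at 609 and 348 without and at 577.7 and 528 with cAMP. The cAMP arrays fell between the controls (0.25 ± 0.24), and the sign depended on the control: the difference was 0.64 against control replicate 2 alone, where it passed, and -0.14 against control replicate 1 alone. Dnaja2 had 0.21 ± 0.16. Dnajb4 (-0.45 ± 0.14) and Dnajb6, known for keeping polyglutamine proteins soluble (-0.53 ± 0.17), were lower on both cAMP arrays than on both controls, with adjusted p-values by limma of 0.0716 and 0.0898.

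The heat shock factors did not pass. Hsf1, the master regulator of the heat shock response, lay at 93.6 and 78.9 on the control arrays and at 58.3 and 67.6 with cAMP. The cAMP arrays lay below the controls (-0.37 ± 0.19, 95% interval -0.82 to 0.08). Hsf2, which is known for its role in the testis, lay at 464.9 and 483.6 without and at 469.3 and 388.3 with cAMP, with overlapping groups (-0.15 ± 0.15). The 3 other tested probe sets of Hsf2 did not pass and differed in sign, from -0.33 ± 0.39 to 0.51 ± 0.24.

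All 8 TRiC subunits were tested and none passed by limma, beside 15.4% of all genes tested. Of the 8, Cct5 alone had an unadjusted p under 0.05. The log2 differences ran from -0.28 to 0.27 with a median of -0.14, and the 95% intervals of the 8 subunits lay between a 0.689-fold and a 1.47-fold level. Tcp1, the alpha subunit, lay at 1733 and 1257.4 without and at 1321.3 and 1408.6 with cAMP (-0.11 ± 0.17), and Cct2, the beta subunit, at 1796.9 and 1574.9 without and at 1573.3 and 1438.6 with cAMP (-0.16 ± 0.13). Cct5 had the lowest difference, with 2733.2 and 2569.4 on the control arrays and 2250.4 and 2122.6 with cAMP (-0.28 ± 0.11, adjusted p by limma = 0.155). Its other tested probe set gave the same difference, -0.28 ± 0.14. Cct4 had the highest, with 1827.7 and 1611 without and 2127 and 2010.9 with cAMP (0.27 ± 0.12, adjusted p by limma = 0.203). The differences of Cct3, Cct6a, Cct7 and Cct8 lay between these, at -0.16, -0.12, -0.23 and 0.15. All 8 subunits were lower on control replicate 2 than on control replicate 1, as were 84.4% of the tested members and 56% of all genes tested.

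The counts depended on which array was left out. Without control replicate 1 all 8 changed members passed, and 9 more did: Hspa1a, Hspa14, Dnaja1, Dnaja2, Dnajb1, Bag1, Bag3 and Cct4 upward and Dnajb6 downward, giving 13 higher and 4 lower. That fit sets the cAMP arrays against control replicate 2 alone, which is assumed to vary like the other arrays. Without control replicate 2, 7 of the 8 still passed, Hspa4 being lost and Dnajb4 added as lower. Without cAMP replicate 1 only Cryab and Bag2 of the members passed, and without cAMP replicate 2 only Cryab, Bag2 and Hspb2.

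**Figure D3:**
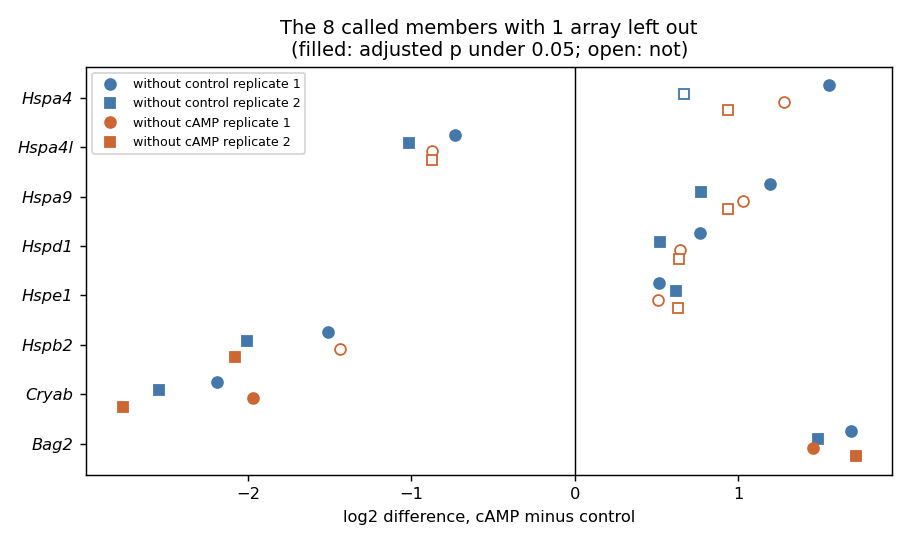
Log2 difference, cAMP minus control, of the 8 changed members when 1 of the 4 arrays was left out; each symbol names the array left out. Filled symbols had an adjusted p by limma under 0.05, and only Cryab and Bag2 are filled in all 4 cases; no symbol crosses 0.

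Other genes of these chaperone systems were taken from a list of 67 co-chaperones and mitochondrial partners. Of the 58 tested, 4 rose, 1 fell and 53 did not pass, which is 8.62% changed beside the 15.4% of all genes. The median log2 difference was -0.03, as it was over all genes tested. Of the 12 tested mitochondrial partners 2 rose and 0 fell (16.7%, beside 8.27% of all genes that rose and 15.4% changed either way). The median log2 difference of the 12 was 0.02. Dnajc15, a J-domain protein of the inner membrane's import machinery, lay at 658.3 and 540.7 without and at 1703.8 and 1372.3 with cAMP (1.33 ± 0.16, adjusted p by limma = 0.00224), and passed with each array left out in turn. Lonp1, the protease of the mitochondrial matrix, lay at 184.1 and 136.7 without and at 288.7 and 370.8 with cAMP (0.97 ± 0.20, adjusted p by limma = 0.0202). It did not pass without cAMP replicate 1 (adjusted p by limma = 0.0844) or without cAMP replicate 2 (0.206).

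The other 10 tested mitochondrial partners did not pass. Grpel1, the nucleotide exchange factor of mortalin, was at -0.25 ± 0.14, and Trap1, the mitochondrial HSP90, at -0.07 ± 0.19. The matrix protease subunits Clpp and Clpx were at -0.01 ± 0.16 and 0.10 ± 0.21.

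In the cytosol, the HSP90 co-chaperone genes Fkbp5 and Sugt1 rose. Fkbp5, an immunophilin of steroid receptor complexes and a known target of those receptors, lay at 78.9 and 80.2 without and at 246.2 and 212.3 with cAMP (1.36 ± 0.17, adjusted p by limma = 0.00268). Sugt1 lay at 1160.4 and 1142.4 without and at 2168.5 and 1850.6 with cAMP (0.79 ± 0.13, adjusted p by limma = 0.00743). Fkbp5 did not pass without cAMP replicate 1 (adjusted p by limma = 0.0606), and Sugt1 did not without cAMP replicate 1 (0.146) or cAMP replicate 2 (0.0579). Fkbp4 (-0.02 ± 0.20), the close relative of Fkbp5, and the HSP90 cofactors Ptges3 (-0.01 ± 0.11) and Ahsa1 (-0.28 ± 0.15) did not pass.

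Pfdn2, a subunit of prefoldin, which hands unfolded actin and tubulin to TRiC, fell. It lay at 1236.8 and 1318.4 without and at 936.6 and 893.8 with cAMP (-0.47 ± 0.12, adjusted p by limma = 0.0437). It did not pass without cAMP replicate 1 (0.285) or without cAMP replicate 2 (0.347), without the filter on dim probe sets (0.0806) or with eBayes without an intensity trend (0.116). None of the 21 tested HSP70 co-chaperones passed by limma, beside 15.4% of all genes tested. An unadjusted p under 0.05, for which the share of all genes was not computed, was found for 4.

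**Figure D4:**
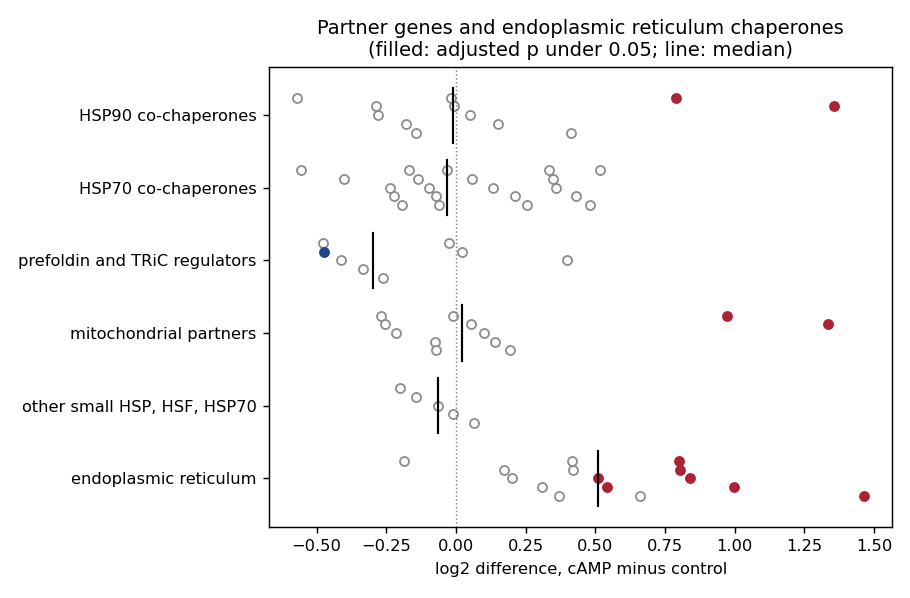
Log2 differences, cAMP minus control, of tested partner genes by list and of 15 endoplasmic reticulum chaperones, 1 point per gene, with a line at each list's median. Filled points had an adjusted p by limma under 0.05 (red higher, blue lower); 4 partner genes are red and 1 is blue.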

How the data were processed

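The authors deposited 1 intensity value per probe set and array, for which the submitters' processing notes name GCOS and MAS5. No version, setting or genome build is given there. The 2% trimmed mean was 125 on each array, so these intensities had been scaled before deposit. Symbols came from the platform annotation (20832 of 31099 probe sets with 1 symbol, 436 with several), and all member symbols were current in the GRCr8 RefSeq table. The values were turned into log2(signal + 16) without further normalization. The 57 control probe sets and those below the 40th percentile of the mean (log2 5.10) were left out. The remaining 18625 entered a limma fit (version 3.58.1, R 4.3.3; lmFit, eBayes with an intensity trend, two-sided; Benjamini-Hochberg over all probe sets), and the fit was tested on simulated data. Across 20 simulated data sets, 24.85% of true 2-fold changes and 93% of true 4-fold changes passed. In the simulated data fewer probe sets changed than the 2549 that passed here. The adjustment is stricter when fewer change, so the simulated shares may lie below those of the real data. Adding 16 shrinks the differences of dim genes, and the number of arrays limits the precision. For a gene at background on all arrays of 1 group, the fold change compares the other group's geometric mean with values raised to background. Every changed member was named, with well-known members of each role and the changed partner genes; Stub1, Grpel1, Trap1, Clpp, Clpx, Fkbp4, Ptges3, Ahsa1 and the markers were chosen after their values were seen. The members and lists were chosen with earlier results of these data known. Alternatives covered the pseudocount, filter, normalization, variance model, threshold, probe set choice, symbols, replicate block and each array left out.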

Additional observations from a re-analysis of the deposited data

How the results depend on the processing

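Without the filter on dim probe sets 2 members were higher, and 2 also with eBayes without an intensity trend. At an adjusted p of 0.10 by limma 5 members were lower. With 1 array left out, the members higher ranged from 1 to 13 and those lower from 1 to 4, the partner genes higher from 1 to 8 and lower from 0 to 3, and all probe sets higher from 408 to 2419 and lower from 305 to 2371. Of all probe sets 873 were higher and 725 lower without the filter, and 1848 were lower at 0.10. Of the partner genes, 0 were lower without the filter and 0 with eBayes without a trend, 2 with the stricter filter and 3 at 0.10. The cause was not tested, apart from fewer samples or another set of probe sets tested. Across 16 alternatives, 510 values of the 32 tested members were computed; Hspa1a and Hspb2 gave none under the stricter filter. No changed member turned its sign, and 8 that did not pass did, 13 times in all. With 1 array left out, the log2 difference ran from -0.16 to 0.0011 for Hsph1, from -0.22 to 0.12 for Hsp90ab1, from -0.064 to 0.13 for Stip1, from -0.00051 to 0.42 for Dnaja2, from -0.14 to 0.64 for Dnajb1, from -0.34 to 0.12 for Tcp1, from -0.28 to 0.044 for Cct6a and from -0.022 to 0.32 for Cct8. The end on the other side of 0 came without control replicate 1 for Hsph1, Hsp90ab1, Tcp1 and Cct6a and without control replicate 2 for the others, and Stip1 was also below 0 without cAMP replicate 1. With the probe set of highest variance Hsph1 was 0.19 and Hsp90ab1 0.42, and with the median over a gene's tested probe sets 0.056 and 0.18. With the replicate number as a block, 6 members were higher (Hspb1 added, adjusted p by limma = 0.0478) and 3 lower, and Pfdn2 did not pass (0.0573). Same-numbered arrays' deviations from their group means correlated at 0.163, and with 2 pairs the numbers were not taken to pair the samples.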

Other observations

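Chaperones of the endoplasmic reticulum, which fold secreted and membrane proteins, were measured for contrast. Of 15 tested, 7 rose and 8 did not pass, which is 46.7% beside the 8.27% of all genes that rose; 0 fell by limma. The median log2 difference was 0.51, and both cAMP arrays lay above both control arrays for 13 of the 15, and for 28.8% of all genes tested. The 7, named after their values were seen, were Hspa5, Hsp90b1, Dnajc1, Dnajc3, Calr, Pdia3 and Pdia6. Calr, the lectin chaperone calreticulin, lay at 1194.4 and 755.4 on the control arrays and at 2447.7 and 2871.4 with cAMP (1.46 ± 0.21), and Hsp90b1, the HSP90 of this compartment, at 999 and 887.3 without and at 1724.1 and 2082.1 with cAMP (1.00 ± 0.14). In 14 of the 15 the signal was lower on control replicate 2 than on control replicate 1, and the part of this in the difference was not tested. The number that rose was 2 without cAMP replicate 1, 0 without cAMP replicate 2, 8 without control replicate 2 and 10 without control replicate 1, in fits chosen after the data had been seen.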
